A study of Rattus norvegicus with 8 samples.

Results

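Mitochondrial ribosomal protein (MRP) genes encode the protein subunits of the ribosome that works inside mitochondria. They were taken as every gene of the deposited expression table whose symbol is Mrpl or Mrps followed by a number, which gave 71 of 10692 genes. Of these, 42 were Mrpl genes, named for the large subunit, and 29 were Mrps genes, named for the small subunit. Membership rests on symbols alone, but the list was chosen with earlier results of these data known. Genes of the deposited expression table had a mean of at least 1 RPKM (a read density, explained below) in both groups. All 71 passed the filter on low values used for testing. Mrpl11 and Mrpl44 are not analysed here.

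The cells were pancreatic islet cells of Sprague Dawley rats at postnatal day 10, dissociated, cultured and transfected, with a lipid reagent, with locked nucleic acid (LNA) inhibitors, which are modified oligonucleotides that pair tightly with a target RNA. The control group had 4 libraries of cells given 60 pmol of a control LNA. The inhibitor group had 4 libraries of cells given 3 LNA inhibitors at 20 pmol each, against the 5′ fragments (tiRNA-5) of the tRNAs HisGTG, GluCTC and GluTTC. A tiRNA-5 is the fragment on the 5′ side of a tRNA cut in its anticodon loop. The comparison asks which mRNAs differ when these fragments are inhibited, and the fragments themselves are not measured by these values. Whole islet cell cultures were sequenced, so beta cells were not separated from other cells, and the labels tie no library to an animal, litter or culture. The p-values therefore measure the spread between these libraries, which may be technical.

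The mitochondrial ribosome makes the few proteins that mitochondrial DNA encodes, all of them core subunits of the respiratory chain and of ATP synthase. Its ribosomal RNAs come from mitochondrial DNA, whereas all of its proteins are encoded in the nucleus, made in the cytosol and imported. Some of these proteins descend from bacterial ribosomal proteins and others were added during the evolution of mitochondria. In beta cells, ATP from the respiratory chain closes potassium channels when glucose rises, so mitochondrial activity is tied to insulin secretion, and beta cells of newborn rats couple glucose to secretion poorly.

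Between 16035607 and 19049788 reads fell in the listed genes of each library, and between 27902 and 35666 of them fell in MRP genes. The median MRP gene had between 343 and 470 reads in a library, and the fewest reads of any member in any library were 116. Insulin genes (Ins1 and Ins2) took between 9.37% and 15.2% of the reads, lowest in inhibitor 4, and 7 of the 8 beta cell markers were in the table. Summed Y-linked expression was 10.4 to 21.2 RPKM in control libraries and 9.62 to 27.5 RPKM in inhibitor 1 to 3, but 0.376 RPKM in inhibitor 4. Of the mesenchymal and stellate markers, 5 of 8 were in the table, with summed levels of 1507 to 3226 RPKM in control and 1642 to 2675 RPKM in inhibitor libraries. Of the acinar markers 2 of 10 were in the table, of the endothelial 1 of 5, of the immune 1 of 6, and of the Schwann cell and erythroid markers 0. Since the libraries are of bulk cells, fewer cells of a type and less RNA per cell cannot be told apart.

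MRP mRNAs were present at moderate levels and spanned a wide range. Levels are in RPKM, a read density per kilobase of a gene relative to library size. Setting genes beside each other thus rests on the gene lengths used, and the annotation behind them is not given in the sources. The median MRP gene had a mean of 15.3 RPKM over the 8 libraries, against 9.96 RPKM for all genes tested. The median large subunit gene stood at 16.0 RPKM and the median small subunit gene at 12.4 RPKM. The cytosolic ribosomal proteins, which build the ribosome of the cytosol, had a median of 45.0 RPKM over 50 genes. The median was 42.0 RPKM for 31 subunits of respiratory complex I and 75.5 RPKM for 35 subunits of complexes II to V. The 16 mitochondrial aminoacyl-tRNA synthetases, which load the tRNAs that the mitochondrial ribosome reads, had a median of 3.77 RPKM. MRP genes thus stood between the synthetases and the respiratory subunits in median level.

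Although the encoded proteins mostly enter the particle in equal numbers, the highest MRP gene was 19.3-fold above the lowest in RPKM. In reads the 2 lay closer, with 374 to 603 per library for Mrpl33 and 176 to 286 for Mrps35. The range and order below therefore depend on the gene lengths used, which are not given in the sources. Mrpl33, the counterpart of bacterial L33, had the highest mean at 86.4 RPKM. It was followed by Mrps21, the counterpart of bacterial S21, at 59.1 RPKM. Next came Mrpl17, the counterpart of bacterial L17, at 52.2 RPKM. Mrps33, a mitochondrion-specific protein of the small subunit, stood at 47.9 RPKM, and these 4 were the members above 40 RPKM. The lowest were Mrps35 at 4.47 RPKM, Mrps36 at 4.66 RPKM and Mrps28 at 4.73 RPKM, which lie closer to each other than the spread between libraries. Among large subunit genes the lowest were Mrpl50 at 5.14 RPKM, and Mrpl46 and Mrpl39, both at 7.52 RPKM. The next highest large subunit gene after Mrpl33 and Mrpl17 was Mrpl54 at 32.9 RPKM. Mrps36 is the exception to its name: the protein is now known as a part of the 2-oxoglutarate dehydrogenase complex and not of the ribosome. Mrps28 had the fewest reads of the members, from 116 to 175 per library.

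**Figure D1:**
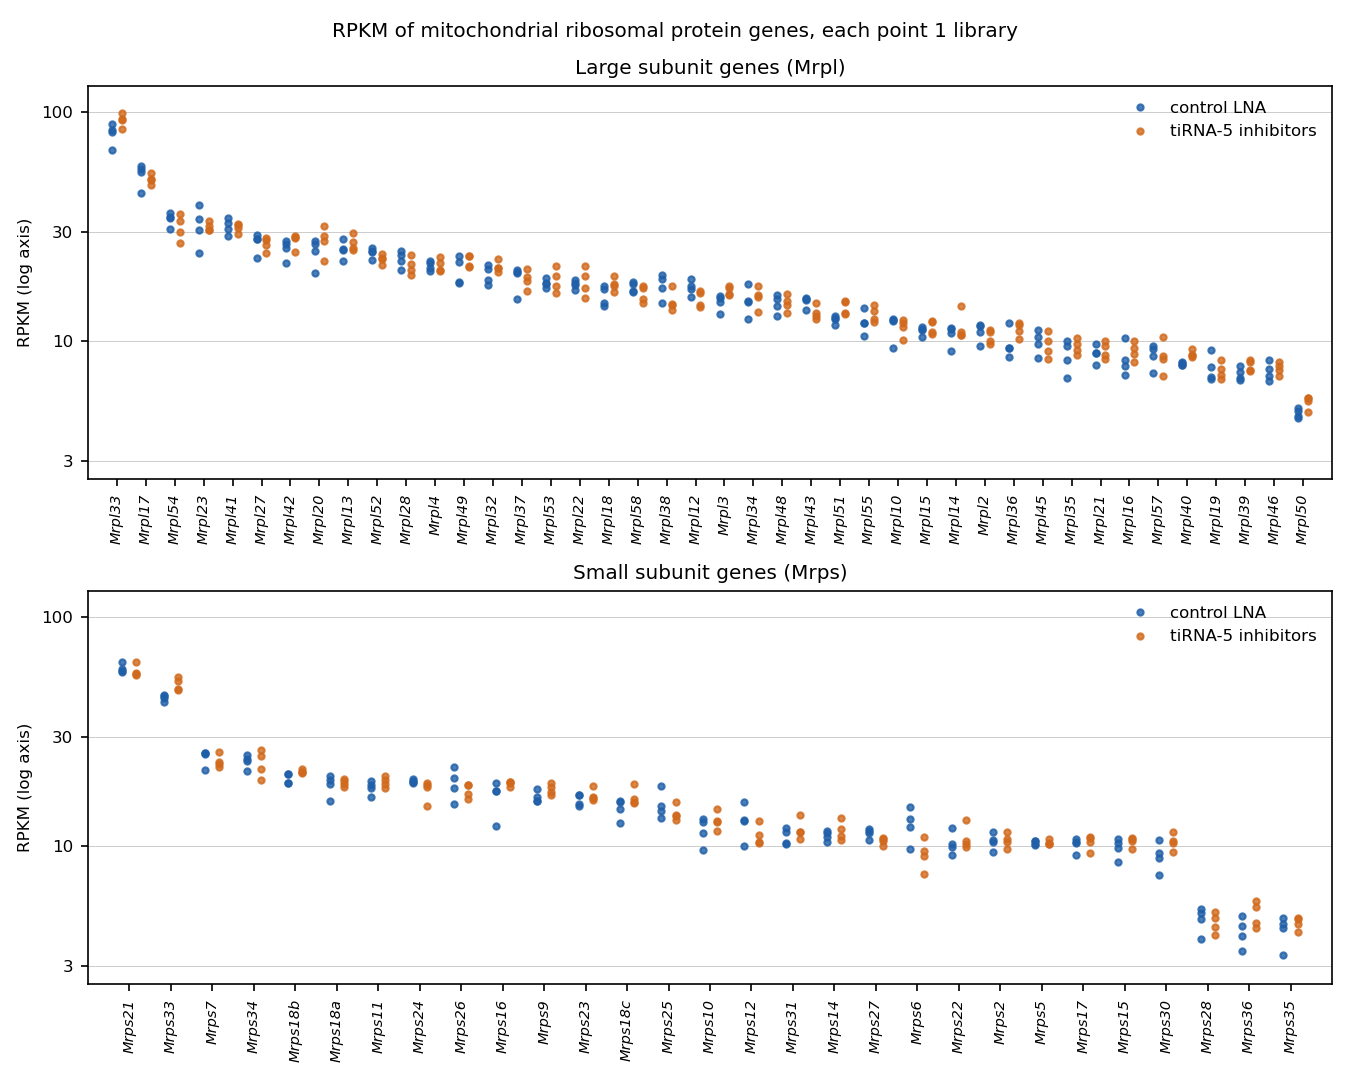
RPKM of the 42 Mrpl genes (upper panel) and the 29 Mrps genes (lower panel) on a log axis, genes in order of level, with 1 point per library coloured by group. Control and inhibitor points lie on top of each other for most genes, and the order from Mrpl33 at 86.4 RPKM down to Mrps35 at 4.47 RPKM is much wider than the spread within a gene.

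Promoter sequences were available for 56 of the 71 members, from RefSeq on the assembly GRCr8, each running from 250 bases before to 50 bases after the gene start. Nuclear genes for mitochondrial proteins are known targets of nuclear respiratory factor 1 (NRF1), of the ETS factor GABPA (also called NRF2), of YY1 and of ZNF143, so the windows were searched on both strands for a core motif of each. The promoters below are those of the most abundant member of each subunit (Mrpl33 and Mrps21), of a large and a small subunit gene whose libraries did not overlap between the groups (Mrpl3 and Mrps18b), and of a gene with both an ETS and a YY1 match (Mrps10). Every window shown holds an ETS match, against 20 of 56 MRP promoters, so these windows are not typical of the list. Mrpl51, Mrpl40 and Mrps33, which also did not overlap between the groups, had no match to the 4 core motifs and are not shown. The promoters are written 5′ to 3′ on the strand of the gene, with matches to the 4 core motifs in capitals. Mrpl33 lies at chr6:30553938-30554237 on the minus strand, Mrps21 at chr2:186103302-186103601 on the minus strand, Mrps18b at chr20:2842756-2843055 on the plus strand, Mrpl3 at chr8:114548720-114549019 on the plus strand and Mrps10 at chr9:21122404-21122703 on the minus strand.
Mrpl33: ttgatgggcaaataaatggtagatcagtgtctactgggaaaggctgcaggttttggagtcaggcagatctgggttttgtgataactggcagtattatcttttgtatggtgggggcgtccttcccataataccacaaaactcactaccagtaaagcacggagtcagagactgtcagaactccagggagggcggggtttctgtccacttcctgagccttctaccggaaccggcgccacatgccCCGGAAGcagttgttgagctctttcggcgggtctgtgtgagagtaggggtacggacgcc
Mrps21: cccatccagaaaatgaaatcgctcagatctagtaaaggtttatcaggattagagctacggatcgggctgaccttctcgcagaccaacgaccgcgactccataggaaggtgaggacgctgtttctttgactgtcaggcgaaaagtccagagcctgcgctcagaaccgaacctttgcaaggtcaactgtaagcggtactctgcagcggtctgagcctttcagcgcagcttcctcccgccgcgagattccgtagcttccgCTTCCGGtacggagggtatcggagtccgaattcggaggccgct
Mrps18b: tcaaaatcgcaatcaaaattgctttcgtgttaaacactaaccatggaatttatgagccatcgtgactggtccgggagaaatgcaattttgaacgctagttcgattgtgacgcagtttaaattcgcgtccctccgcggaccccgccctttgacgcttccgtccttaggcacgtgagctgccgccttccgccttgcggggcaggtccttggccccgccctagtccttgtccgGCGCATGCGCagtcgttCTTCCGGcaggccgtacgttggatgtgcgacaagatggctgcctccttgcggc
Mrpl3: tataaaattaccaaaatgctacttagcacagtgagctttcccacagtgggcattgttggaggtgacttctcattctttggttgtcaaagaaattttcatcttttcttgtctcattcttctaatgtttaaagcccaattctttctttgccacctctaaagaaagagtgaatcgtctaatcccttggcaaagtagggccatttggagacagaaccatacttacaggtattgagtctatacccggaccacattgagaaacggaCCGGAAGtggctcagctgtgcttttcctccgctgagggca
Mrps10: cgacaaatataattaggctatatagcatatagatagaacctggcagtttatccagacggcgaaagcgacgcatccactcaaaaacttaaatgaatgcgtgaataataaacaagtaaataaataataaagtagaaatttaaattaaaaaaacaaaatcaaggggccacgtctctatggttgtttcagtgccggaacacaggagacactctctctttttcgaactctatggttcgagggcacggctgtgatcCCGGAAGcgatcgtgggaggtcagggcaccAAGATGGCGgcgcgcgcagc

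The matches in these windows lay close to the gene start. Counted from the start as +1, the ETS match of Mrpl33 began at -9, that of Mrps21 at +8 on the opposite strand, that of Mrpl3 at +11 and that of Mrps10 at +1. Mrps10 also had a YY1 match that began at +31. Mrps18b had an NRF1 match that began at -20 and an ETS match on the opposite strand that began at -3. A match is a stretch of letters, and binding was not measured.

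MRP promoters held the ETS, YY1 and NRF1 cores more often than promoters of the deposited table at large. So did those of the mitochondrial synthetases and of complexes II to V, while those of complex I did not for the ETS core. The ETS core CCGGAAG was found in 20 of 56 MRP promoters, or 35.7%, against 18.8% of the 8121 promoters of table genes, 11.2% of the 18999 promoters of protein-coding genes and 29.3% of 41 promoters of cytosolic ribosomal protein genes. The YY1 core AAGATGGCG was found in 9 MRP promoters, or 16.1%, against 4.20% of table genes and 4.88% of cytosolic ribosomal protein genes. The NRF1 core, a palindrome whose letters are the first run of capitals in the Mrps18b window, was found in 3 MRP promoters, or 5.36%, against 2.12% of table genes. The related short palindrome TGCGCA, which can overlap an end of the NRF1 core but does not lie within it, was found in 15, or 26.8%, against 14.5%. The ZNF143 core, shared with THAP11, was found in 4, or 7.14%, against 4.59%, and all 4 were large subunit genes. At least 1 of the 4 cores was found in 29 of 56 MRP promoters, or 51.8%, against 26.9% of table genes. In the promoters of other mitochondrial genes, the ETS core was found in 42.9% of 28 for complexes II to V, 6 of 15 for mitochondrial synthetases and 17.9% of 28 for complex I. The YY1 core was found in 3 of 15 (20.0%) for the synthetases, 5 of 28 (17.9%) for complex I and 3 of 28 (10.7%) for complexes II to V. The NRF1 core was found in 1 (6.67%), 1 (3.57%) and 3 (10.7%) of these promoters, so its shares rest on few matches.

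Of the general promoter elements, the GC box GGGCGG was the one found less often in MRP promoters. It was in 29 of 56, or 51.8%, against 65.3% of table genes, and the median GC content of the windows was 56.0% in MRP genes against 61.7% in table genes. The CCAAT box (CCAAT) was in 42.9% against 37.7%, and the TATA box (TATAAA) in 10.7% against 5.94%. Large and small subunit genes had close shares of the ETS core, 35.3% of 34 and 36.4% of 22 promoters. These shares are descriptions and were not tested, and base composition was not matched between the sets. Members with an ETS match had a median log2 fold change between the groups of 0.02 (20 genes) and those without of 0.06 (36 genes). Members with a YY1 match had a median of 0.12 (9 genes) and those without of 0.04 (47 genes).

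**Figure D2:**
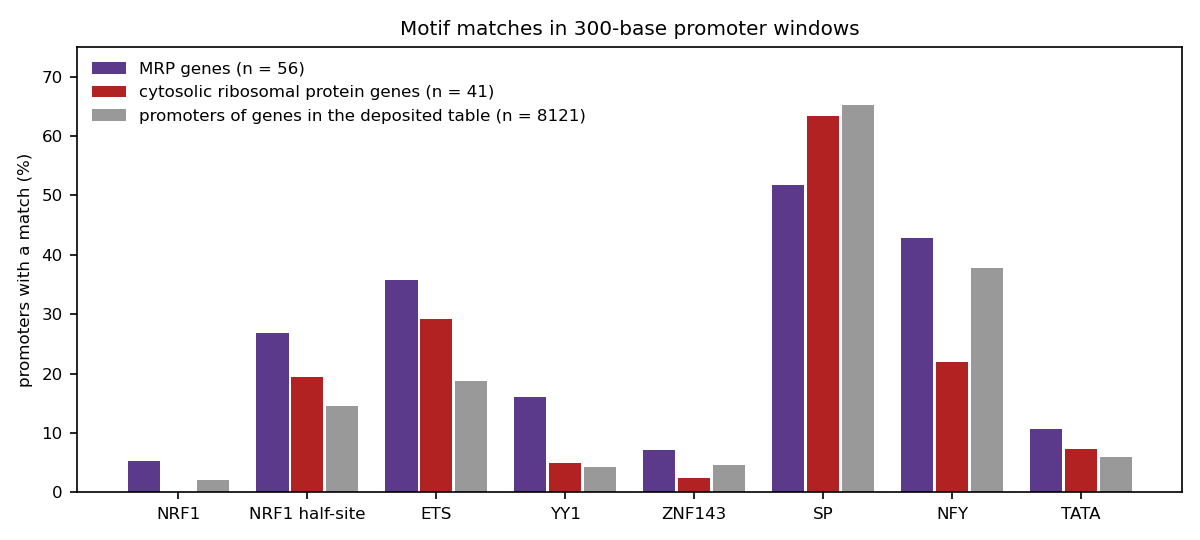
Percentage of 300-base promoter windows with at least 1 match to each core motif on either strand, for MRP genes and for the comparison sets named in the legend. The ETS bar of MRP genes stands at 35.7% against 18.8% of table genes, the YY1 bar at 16.1% against 4.20%, and the GC box (SP) bar lies lower, at 51.8% against 65.3%.

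Between the control and inhibitor groups, the mean levels of MRP mRNAs differed little and no member passed the test. With limma on log2(RPKM + 1) and Benjamini-Hochberg adjustment over all 10688 genes tested, 0 of 71 members had an adjusted p under 0.05, and the background was 0% of all genes. The smallest adjusted p of a member was 0.541, which was also the smallest of any gene. limma-voom on the reads recovered from the RPKM values also called 0 members and 0 genes. An unadjusted p under 0.05 was found for 4 members, or 5.63%, against a background of 8.98% of all genes (960 by limma, and 1000 by limma-voom). Of these, 3 were higher in inhibitor libraries (Mrps33, Mrpl51 and Mrpl33), against 5.52% of all genes, and 1 was lower (Mrps6), against 3.46%. The 4 members became 2 without control 2, 2 without inhibitor 1 and 9 without control 4, where the background was 4.63%, 3.95% and 11.3% of all genes. Without control 1 there was 1 higher and 5 lower, against 5.60% and 6.32% of all genes, and without both control 1 and inhibitor 4 there was 1 higher and 7 lower, against 6.11% and 9.82%. The balance of directions thus depended on these libraries.

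The sizes of the differences were small as well as uncertain. The ratio of the group means, inhibitor over control, ran from 0.747 for Mrps6 to 1.19 for Mrps36, and 70 of 71 members lay within 1.2-fold. The 95% confidence interval of the log2 fold change lay within 0.5 of 0 for 70 of 71 members, with a median half-width of 0.19 against 0.20 for all genes. The exception was again Mrps6, with an interval of -0.68 to -0.09. The median log2 fold change was 0.04 over the 71 members, with 45 positive and 26 negative, against a median of 0.02 and 54.3% positive over all genes. It was 0.04 over the large subunit genes (26 of 42 positive) and 0.06 over the small subunit genes (19 of 29 positive). Without control 1 these medians were 0.01 and 0.02, and without inhibitor 4 that of the small subunit was 0.01. Without both, the medians were -0.0081 and -0.0069, with 34 of 71 members positive. With median-of-ratios scaling, which takes the median of all genes from 0.02 to -0.01, 40 members were positive.

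**Figure D3:**
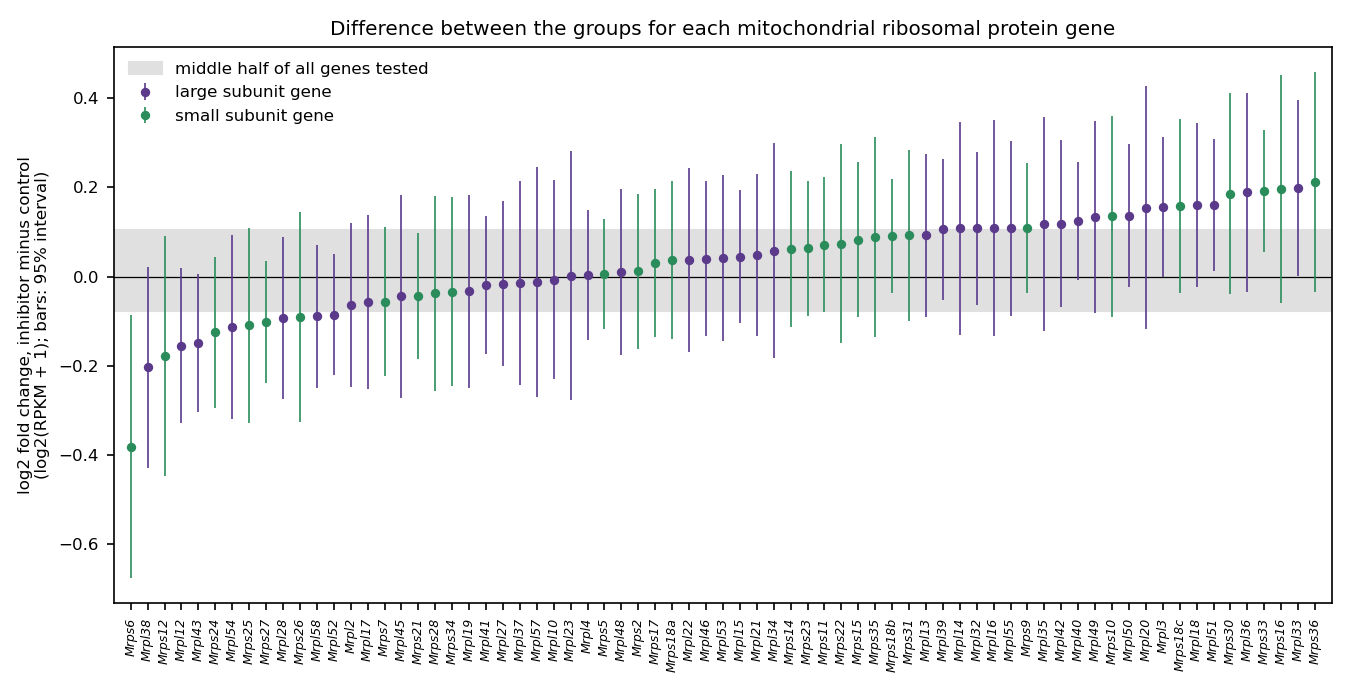
Log2 fold change of each of the 71 MRP genes (inhibitor minus control, from log2(RPKM + 1)), in order of size, with bars for the 95% confidence interval and colours for the subunit. Nearly all bars lie between -0.5 and 0.5, and Mrps6 is set apart at -0.38.

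Values did not overlap between the groups for 6 members, or 8.45%, against 5.31% of all genes. They were higher in all 4 inhibitor libraries for 5 members (Mrps33, Mrpl51, Mrpl3, Mrpl40 and Mrps18b), against a background of 3.70%, and lower in all 4 for Mrps24, against 1.61%. The count was 11 without control 1 and 13 without control 4, and it stayed at 6 without control 2 or without inhibitor 1. Leaving out a library can only keep or raise it, and the matching shares of all genes are not given here. None of the 6 had an adjusted p under 0.54 by limma.

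In the large subunit, the members with the smallest unadjusted p among those higher in inhibitor libraries were Mrpl51, Mrpl33, Mrpl3, Mrpl40 and Mrpl18. Mrpl51, a mitochondrion-specific protein, measured 12.5, 11.8, 12.9 and 12.7 RPKM in control 1 to 4 and 14.8, 13.2, 13.2 and 15.02 RPKM in inhibitor 1 to 4. The lowest inhibitor libraries, 2 and 3, lay just above the highest control library. Its means were 12.5 ± 0.480 and 14.1 ± 0.976 RPKM (SD, n = 4 each), a log2 fold change of 0.16 ± 0.07 (SE) with a limma adjusted p of 0.541.

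Mrpl33 measured 68.0, 83.5, 82.0 and 88.5 RPKM in control 1 to 4 and 91.9, 93.3, 84.4 and 99.3 RPKM in inhibitor 1 to 4. Control 1 was far below the other control libraries, and control 4 lay above inhibitor 3, so the groups overlapped. The means were 80.5 ± 8.78 and 92.2 ± 6.14 RPKM (SD, n = 4 each), and the log2 fold change was 0.20 ± 0.09 (SE) with a limma adjusted p of 0.550. Without control 1 it was 0.12.

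Mrpl3, the counterpart of bacterial L3, which lies near the site where peptide bonds form, measured 13.2, 15.5, 14.9 and 15.8 RPKM in control 1 to 4. It measured 17.5, 16.1, 15.9 and 17.1 RPKM in inhibitor 1 to 4. The groups did not overlap, but control 4 lay just under inhibitor 3. The means were 14.9 ± 1.17 and 16.7 ± 0.773 RPKM (SD, n = 4 each), with a log2 fold change of 0.16 ± 0.07 (SE) and a limma adjusted p of 0.550.

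Mrpl40, a mitochondrion-specific protein, had the tightest control values of these genes. It measured 7.85, 8.03, 7.90 and 8.16 RPKM in control 1 to 4 and 9.29, 8.68, 8.51 and 8.70 RPKM in inhibitor 1 to 4. The means were 7.99 ± 0.138 and 8.79 ± 0.340 RPKM (SD, n = 4 each), a log2 fold change of 0.12 ± 0.06 (SE) with a limma adjusted p of 0.554. Mrpl18, the counterpart of bacterial L18, was at 15.8 ± 1.62 and 17.8 ± 1.21 RPKM (SD, n = 4 each), and its groups overlapped.

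Among large subunit members lower in inhibitor libraries, none had an unadjusted p under 0.05. Mrpl43, a mitochondrion-specific protein, averaged 14.9 ± 0.830 in control and 13.3 ± 0.931 RPKM in inhibitor libraries (SD, n = 4 each). Mrpl38, also mitochondrion-specific, stood at 17.5 ± 2.12 and 15.02 ± 1.66 RPKM (SD, n = 4 each). In Mrpl38, control 1 was the highest library at 19.5 RPKM, whereas control 1 was the lowest for most members. Mrpl12, the counterpart of the bacterial stalk protein L7/L12 that recruits translation factors, stood at 17.2 ± 1.26 and 15.3 ± 1.27 RPKM (SD, n = 4 each), a log2 fold change of -0.15 ± 0.08 (SE) with a limma adjusted p of 0.564. Mrpl52 stood at 24.4 ± 1.21 and 22.9 ± 1.04 RPKM (SD, n = 4 each), and its groups overlapped.

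Mrpl41 and Mrpl58 are large subunit members of known function. Mrpl41 lay close to no difference, with a log2 fold change of -0.02, and Mrpl58 was somewhat lower in inhibitor libraries at -0.09, with overlapping groups. Mrpl58 is a peptidyl-tRNA hydrolase, known in human cells to sit in the large subunit and to release stalled chains, and it measured 17.2 ± 0.809 RPKM in control and 16.2 ± 1.37 RPKM in inhibitor libraries (SD, n = 4 each). Mrpl41, a mitochondrion-specific protein, measured 31.8 ± 2.55 and 31.3 ± 1.32 RPKM (SD, n = 4 each). The 95% interval of the log2 fold change was -0.25 to 0.07 for Mrpl58 and -0.17 to 0.14 for Mrpl41.

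In the small subunit, Mrps33 had the smallest p of all members. It measured 44.6, 42.5, 45.4 and 45.9 RPKM in control 1 to 4 and 48.7, 54.7, 48.3 and 52.9 RPKM in inhibitor 1 to 4. All inhibitor libraries lay above all control libraries, with a gap smaller than the range within the inhibitor group. The means were 44.6 ± 1.48 and 51.1 ± 3.15 RPKM (SD, n = 4 each), and the log2 fold change was 0.19 ± 0.06 (SE) with an unadjusted limma p of 0.0109 and an adjusted p of 0.541.

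Mrps6, the counterpart of bacterial S6, had the largest difference of the 71 genes and the widest spread, with a coefficient of variation of 21.7% over the 8 libraries. It measured 12.2, 13.1, 14.9 and 9.79 RPKM in control 1 to 4 and 9.58, 9.13, 7.61 and 11.01 RPKM in inhibitor 1 to 4. Control 4 fell inside the inhibitor range, so the groups overlapped. The means were 12.5 ± 2.12 and 9.33 ± 1.40 RPKM (SD, n = 4 each), and the log2 fold change was -0.38 ± 0.13 (SE) with an unadjusted limma p of 0.0164 and an adjusted p of 0.541. The authors' deposited table gave Mrps6 a p of 0.0135 and an adjusted p of 0.420, the lowest of the members. The test behind those values is not given in the sources. Mrps6 rested on 122 to 246 reads per library.

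Mrps24, the counterpart of bacterial S3 despite its number, was the member whose inhibitor values all lay below the control values. It measured 19.8, 19.2, 19.1 and 18.8 RPKM in control 1 to 4 and 18.8, 18.6, 15.01 and 18.1 RPKM in inhibitor 1 to 4. The highest inhibitor library was within 0.01 RPKM of the lowest control library, and inhibitor 3 stood well below the others. The means were 19.2 ± 0.397 and 17.6 ± 1.77 RPKM (SD, n = 4 each), with a log2 fold change of -0.12 ± 0.08 (SE) and a limma adjusted p of 0.592. Without inhibitor 3 the log2 fold change was -0.05. Mrps27 and Mrps25 were also lower in inhibitor libraries, with overlapping groups. Mrps27 stood at 11.4 ± 0.555 and 10.6 ± 0.356 RPKM and Mrps25 at 15.2 ± 2.17 and 14.0 ± 1.10 RPKM (SD, n = 4 each).

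Mrps18b, picked out after its values were seen because its groups did not overlap, measured 19.0, 19.0, 20.8 and 20.8 RPKM in control 1 to 4. It measured 21.2, 20.8, 21.7 and 21.2 RPKM in inhibitor 1 to 4. The mammalian mitochondrial ribosome has several S18 relatives, of which Mrps18b and Mrps18c are placed in the small subunit and Mrps18a in the large subunit. Mrps18c stood at 14.7 ± 1.44 and 16.5 ± 1.48 RPKM and Mrps18a at 18.5 ± 1.97 and 19.0 ± 0.649 RPKM (SD, n = 4 each). None of the 3 had an adjusted p under 0.57 by limma.

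Small subunit members of known function differed in sign and lay within the spread. Mrps12, the counterpart of bacterial S12 at the decoding centre, averaged 12.9 ± 2.27 in control and 11.2 ± 1.19 RPKM in inhibitor libraries (SD, n = 4 each). Mrps16 stood at 16.5 ± 2.90 and 18.9 ± 0.475 RPKM (SD, n = 4 each), and the control spread came from control 1, at 12.3 RPKM against 17.4 to 18.9 RPKM in the other control libraries. Defects of MRPS16, MRPS22, MRPS34 and MRPS2 are known causes of inherited mitochondrial disease in humans. Mrps22 had a log2 fold change of 0.07 ± 0.10, Mrps34 of -0.03 ± 0.09 and Mrps2 of 0.01 ± 0.08 (SE). The signs of Mrps22, Mrps34 and Mrps2 changed when single libraries were left out, and that of Mrps2 also with median-of-ratios scaling.

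The remaining Mrps genes of special position are Mrps30 and Mrps36. Mrps30, whose protein lies in the large subunit despite its name, averaged 9.12 ± 1.31 in control and 10.5 ± 0.839 RPKM in inhibitor libraries (SD, n = 4 each). Mrps36 stood at 4.25 ± 0.627 and 5.07 ± 0.649 RPKM (SD, n = 4 each), the largest ratio upwards of the 71 genes, with a limma adjusted p of 0.570. Both pairs of groups overlapped.

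**Figure D4:**
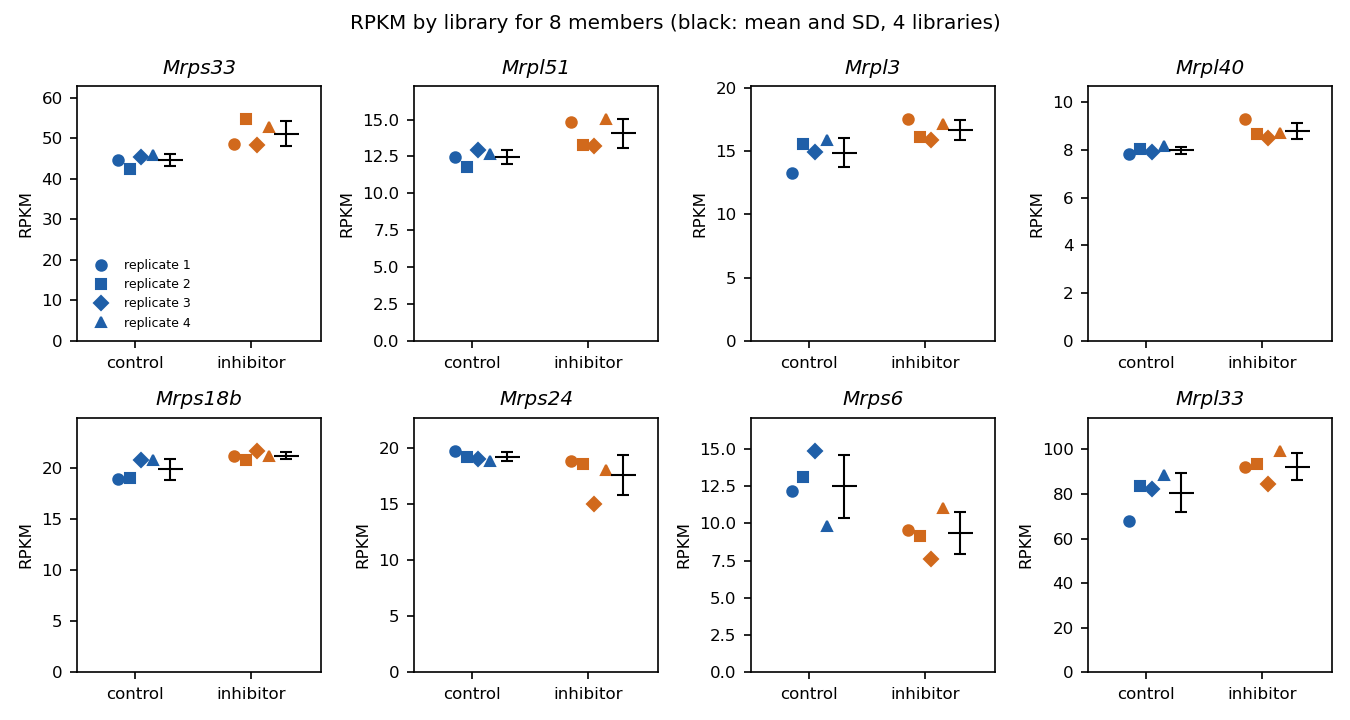
RPKM in each library for 8 MRP genes, 1 panel per gene with an axis from 0, points for single libraries and black marks for the mean and SD of 4 libraries. The genes were picked by their values: the 6 members with no overlap between the groups, and Mrps6 and Mrpl33, with an unadjusted limma p under 0.05. Mrps33 shows 2 separate groups around 44.6 and 51.1 RPKM, while in Mrps6 control 4 at 9.79 RPKM lies among the inhibitor libraries.

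Grouped by origin and place in the particle, the members had medians close to each other. Large subunit proteins with a bacterial counterpart (24 genes) had a median of 16.0 RPKM and a median log2 fold change of 0.05, with 17 positive. Large subunit proteins without one (19 genes, Mrps30 included) had medians of 14.6 RPKM and 0.01, with 10 positive. Small subunit proteins with a counterpart (16 genes) had medians of 12.2 RPKM and 0.02, with 10 positive, and those without (9 genes) had medians of 14.6 RPKM and 0.06, with 5 positive. The S18 relatives Mrps18a and Mrps18b and the non-ribosomal Mrps36 were kept apart. These are descriptions with no test of the differences between classes.

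MRP genes varied little between libraries, and much of what variation there was followed single libraries rather than the groups. The coefficient of variation over the 8 libraries had a median of 8.71% over the members, against 10.7% over all genes, and was under 15% for 68 of 71. Control 1 was the lowest library for 43 of 71 members, or 60.6%, against 28.2% of all genes, and this held for 25 large and 18 small subunit genes. After median-of-ratios rescaling it was the lowest for 34 members, or 47.9%, against 20.9% of all genes. Inhibitor 4 was the highest library for 20 members and inhibitor 3 the lowest for 10.

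The mean deviation of the 71 genes from their own averages, on the log2(RPKM + 1) scale, was -0.14, 0.02, 0.02 and 0.04 in control 1 to 4. It was 0.03, 0.04, -0.07 and 0.06 in inhibitor 1 to 4. The group means of this score were -0.02 ± 0.09 and 0.02 ± 0.06 (SD, n = 4 each), so the difference of 0.03 was smaller than the spread within either group. After rescaling, the difference was 0.01, and the mean deviation of the MRP genes in control 1 was -0.09. Over all genes tested, the mean deviation in control 1 was -0.07 before rescaling and -0.02 after it. The share of listed reads in MRP genes was 0.182% ± 0.0069 in control and 0.189% ± 0.0073 in inhibitor libraries (SD, n = 4 each), with 0.172% in control 1. Control 1 also had the lowest summed alpha cell markers, 5944 RPKM against 7755 to 8377 RPKM in control 2 to 4, and the lowest mesenchymal and stellate sum, 1507 RPKM against 2709 to 3226 RPKM. It had the highest delta cell sum, 1044 RPKM against 586 to 824 RPKM, and the highest endothelial marker, Plvap, 7.17 RPKM against 2.04 to 4.71 RPKM. In inhibitor libraries the alpha cell sum was 7081 to 9769 RPKM, the delta cell sum 400 to 603 RPKM and Plvap 0.702 to 3.54 RPKM. The part of these marker levels in the low MRP values of control 1, or in differences between the groups, was not tested.

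The means of large and small subunit genes followed each other from library to library. The mean deviation of large subunit genes was -0.15, 0.02, 0.03 and 0.04 in control 1 to 4 and 0.04, 0.04, -0.06 and 0.05 in inhibitor 1 to 4. That of small subunit genes was -0.13, 0.02, 0.01 and 0.04 in control 1 to 4 and 0.02, 0.03, -0.08 and 0.08 in inhibitor 1 to 4. The large minus small difference lay between -0.035 and 0.019 in every library. The correlation of the 2 means over the 8 libraries was 0.96, as a description of values that share their libraries and scaling.

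Single members followed the mean of the others loosely. The correlation of a member with the mean of the other members over 8 libraries had a median of 0.59 and ran from -0.45 for Mrpl38 to 0.94, and it was positive for 63 of 71. Over all other genes, the correlation with the MRP mean had a median of 0.23. With rescaled values the medians were 0.42 and -0.0028. Leaving out control 1 gave 0.40 and 0.17, and leaving out inhibitor 3 as well gave 0.13 and 0.18. With rescaled values and both of these libraries left out, the medians were 0.24 and -0.012, so whether members stood above other genes without them depended on the scaling.

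**Figure D5:**
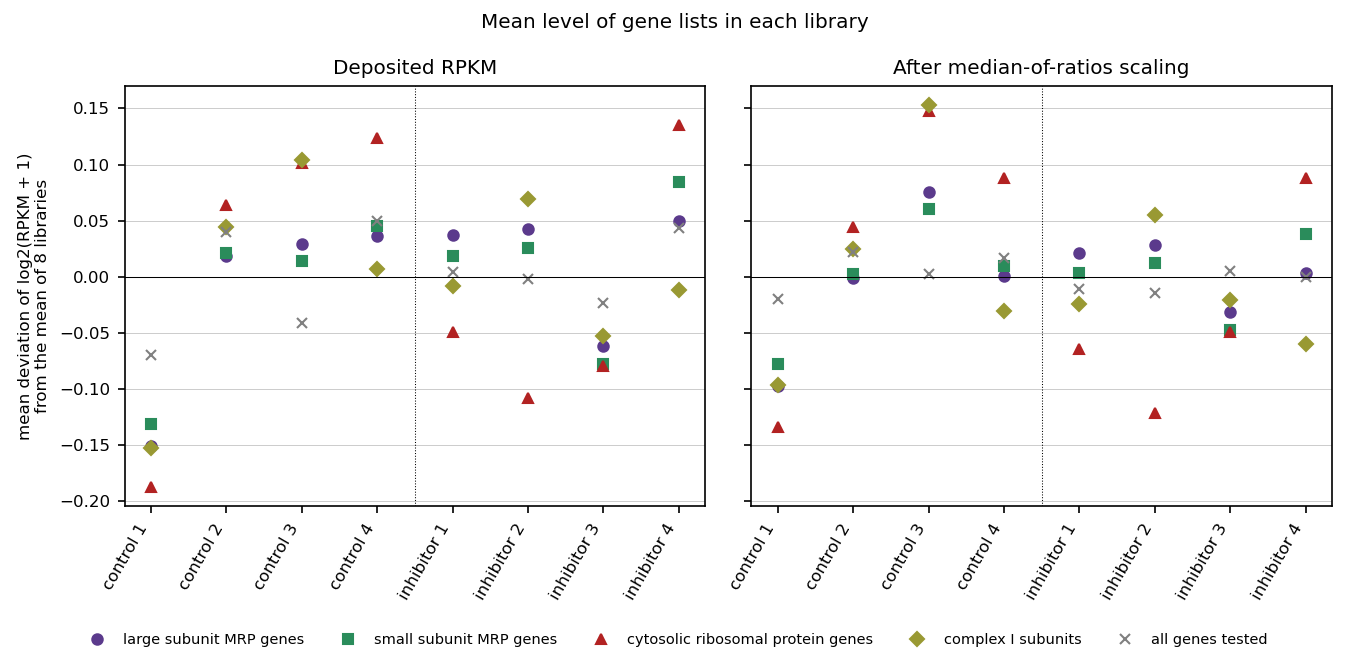
Mean deviation of log2(RPKM + 1) from the 8-library mean for each gene list named in the legend, in each library, with control libraries left of the dotted line and inhibitor libraries right of it. The left panel shows deposited RPKM and the right panel values after median-of-ratios scaling. In the left panel the large and small subunit points lie close together, both lowest in control 1 at -0.15 and -0.13, with the next lowest values in inhibitor 3. In the right panel their control 1 points lie at -0.097 and -0.078.

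The other protein parts of the mitochondrial ribosome, which carry other symbols, were measured for 6 genes, of which 3 were positive and 0 were called. Gadd45gip1, whose protein is a large subunit component, averaged 13.1 ± 1.12 in control and 11.3 ± 1.11 RPKM in inhibitor libraries (SD, n = 4 each), a log2 fold change of -0.20 ± 0.09 (SE) with a limma adjusted p of 0.550. Aurkaip1, a small subunit component, stood at 39.8 ± 1.18 and 42.1 ± 1.38 RPKM (SD, n = 4 each). Dap3, a GTP-binding protein of the small subunit, stood at 15.6 ± 0.758 and 14.8 ± 1.05 RPKM (SD, n = 4 each).

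Of the factors that assemble the particle or modify its RNA, 19 were measured, 17 were positive, the median log2 fold change was 0.08, and 0 were called. At an unadjusted p under 0.05, 2 were higher and 0 lower, against 5.52% and 3.46% of all genes. Gtpbp10, a GTPase of large subunit assembly, measured 2.83, 2.91, 2.94 and 2.94 RPKM in control 1 to 4 and 3.78, 3.49, 3.40 and 3.22 RPKM in inhibitor 1 to 4. Its groups did not overlap, and the limma adjusted p was 0.541. Rpusd4, a pseudouridine synthase that acts on mitochondrial RNA, stood at 4.81 ± 0.378 and 5.56 ± 0.368 RPKM (SD, n = 4 each), with overlapping groups. The count of 2 was 0 with limma-voom or without inhibitor 1, and 1 without control 3, inhibitor 2 or inhibitor 4. The share of all genes higher at that level was 4.65% with limma-voom and 2.49% without inhibitor 1. It was 3.99%, 3.93% and 4.91% without control 3, inhibitor 2 and inhibitor 4.

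Of the mitochondrial translation factors, 12 were measured, 10 were positive, the median log2 fold change was 0.13, and 0 were called. At an unadjusted p under 0.05, 4 were higher (Gfm2, Mtif2, Mtrf1l and Guf1) and 0 lower, out of a list for which the background share is 5.52%. Gfm2, the factor that splits the ribosome after termination, measured 3.89, 3.82, 3.41 and 4.17 RPKM in control 1 to 4 and 4.78, 5.06, 4.23 and 4.65 RPKM in inhibitor 1 to 4. The groups did not overlap, though control 4 and inhibitor 3 were close, and the log2 fold change was 0.24 ± 0.08 (SE) with a limma adjusted p of 0.541. Mtif2, the initiation factor that brings the initiator tRNA, stood at 5.33 ± 0.417 and 6.14 ± 0.300 RPKM (SD, n = 4 each), a limma adjusted p of 0.541. Tufm, the elongation factor that carries aminoacyl-tRNA and the most abundant of the list, stood at 22.0 ± 1.03 and 21.7 ± 0.926 RPKM (SD, n = 4 each). The count of 4 was 1 without control 1, control 3, inhibitor 1 or inhibitor 4, 2 without control 2, inhibitor 2 or inhibitor 3, and 5 without control 4. It was 3 with limma-voom and with median-of-ratios scaling. When each library was left out, the share of all genes higher at that level ran from 2.49% (without inhibitor 1) to 7.62% (without inhibitor 3). That share was 4.65% with limma-voom and 4.20% with median-of-ratios scaling.

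Of the genes for mitochondrial transcription and mRNA stability, 18 were measured, 14 were positive, and 0 were called. Tefm, the elongation factor of the mitochondrial RNA polymerase, measured 3.59, 3.27, 3.09 and 3.23 RPKM in control 1 to 4 and 4.17, 4.78, 4.14 and 4.78 RPKM in inhibitor 1 to 4. The gap between its groups was wider than the spread within control, and the log2 fold change was 0.35 ± 0.08 (SE) with an unadjusted limma p of 0.00137 and an adjusted p of 0.541. Polrmt, the RNA polymerase itself, had the opposite sign, with 3.11 ± 0.310 RPKM in control and 2.49 ± 0.381 RPKM in inhibitor libraries (SD, n = 4 each) and a limma adjusted p of 0.541.

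Of the regulators of mitochondrial biogenesis, 7 were measured, with 3 positive, and 0 were called. Esrra, a nuclear receptor that acts on genes of energy metabolism, stood at 4.62 ± 0.688 and 3.69 ± 0.505 RPKM (SD, n = 4 each), a limma adjusted p of 0.545. Gabpa, the ETS factor named above, stood at 7.48 ± 0.329 and 8.64 ± 0.885 RPKM (SD, n = 4 each), a limma adjusted p of 0.550. Nrf1 stood at 9.23 ± 0.800 and 9.24 ± 0.490 RPKM (SD, n = 4 each).

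The low values of control 1 were shared by other ribosomal and respiratory genes, whereas other libraries were not placed alike. Cytosolic ribosomal protein genes had 16 of 50 positive and a median log2 fold change of -0.05, with 0 higher and 3 lower at an unadjusted p under 0.05, against 5.52% and 3.46% of all genes. Leaving out each library moved that median between -0.13 (without control 1) and -0.0023 (without inhibitor 2, with 24 of 50 positive). Their mean deviation was -0.19, 0.06, 0.10 and 0.12 in control 1 to 4 and -0.05, -0.11, -0.08 and 0.14 in inhibitor 1 to 4. Control 1 was thus low for both kinds of ribosome, while inhibitor 1 and 2 were low for the cytosolic list and not for the MRP genes. Without control 1, 13 of the 50 cytosolic genes were lower at an unadjusted p under 0.05, against 5 of 71 MRP genes and 6.32% of all genes, so the MRP count was near the background. The cytosolic count was 6 without inhibitor 4, against 3.14% of all genes. Leaving out any other single library gave 2 to 4, against 1.46% (without inhibitor 1) to 4.79% (without inhibitor 2) of all genes. The mean deviation of complex I subunits was likewise lowest in control 1, at -0.15. That of all genes tested was also lowest in control 1, at -0.07. Complex I subunits had 16 of 31 positive and a median of 0.0025, and complexes II to V had 19 of 35 positive and a median of 0.03. The difference between MRP genes and these lists was not tested.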

How the data were processed

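RNA of 8 libraries of cultured rat islet cells, 4 per group, was compared. The values deposited by the authors were RPKM per gene and library, per the file headers, beside fold, log2 fold change, p-value and adjusted p-value columns that were the authors' deposited comparison. Their test is not given in the sources. Tools named in the submitters' processing notes are HISAT2 2.1.0, HTSeq, RSEM 1.3.0 and STAR 2.5.3a, with the build rn6. The role of each tool, the gene annotation and the use of strand are not given in the sources, so reads shared with processed pseudogenes or overlapping genes may be split between them. Listed genes had a mean of at least 1 RPKM in both groups. Total sequencing depth is unknown, and the number of reads per gene was recovered from the steps of the RPKM values (whole reads for 10692 of 10692 genes, tolerance 0.0001).

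The tests used limma 3.58.1 (R 4.3.3) on log2(RPKM + 1). Genes needed 1 RPKM or more in 4 or more libraries, which kept 10688 and dropped 4. Group was the only term, with the trend option, two-sided tests and Benjamini-Hochberg adjustment at 0.05 over all genes tested. Fold changes are inhibitor minus control and understate changes of genes of low RPKM. The steps were checked on simulated data. Alternatives were a pseudocount of 0.1, no filter, median-of-ratios scaling, limma-voom with TMM scaling on the recovered reads, a replicate block and leaving out each library.

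Members and gene lists were chosen with earlier results of these data known. Named within each subunit were the 5 members of smallest unadjusted p in each direction, the 3 highest and 3 lowest in level, and members of well known function, and of each other list the 2 genes of smallest p. Mrps18b and Mrps10 fall outside this rule, as do Dap3, Tufm, Nrf1, Mtrf1l and Guf1, which were named after their values were seen. Promoters came from a RefSeq table on GRCr8, matched by symbol for 56 of 71 members (15 were not matched), with the first entry used for 2 genes that had several. The coordinates apply to GRCr8 only, which is not the authors' build.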

Additional observations from a re-analysis of the deposited data

Results flagged for a closer look

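Control 1 stood apart from the other control libraries in the MRP genes as a whole. The mean deviation of the 71 genes on the log2(RPKM + 1) scale was -0.14 in control 1 and between 0.02 and 0.04 in the other control libraries, and that of the 42 large subunit genes was -0.15 in control 1. Part of this was shared by all genes tested, at -0.07 in control 1. After median-of-ratios rescaling the control 1 value was -0.09 for the 71 genes and -0.02 for all genes. In inhibitor 3 the mean of the large subunit genes was -0.062, against 0.04 to 0.05 in the other inhibitor libraries. The mean of the assembly and RNA modification factors was -0.0086 in inhibitor 3, also below the rest of its group.

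Among single members, Mrps7, the counterpart of bacterial S7, was at 21.6 RPKM in control 1 against 25.3 to 25.6 RPKM in the other control libraries. Of 92 groups of 4 libraries examined, 5 held a library this far from the others, and chance gives about 1 in 20.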

How the results depend on the processing

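In every alternative that was run, 0 of 71 MRP genes had an adjusted p under 0.05. The groups share replicate numbers, but no label says that these pair the libraries. Same-numbered libraries had correlations of their deviations of 0.14, -0.27, 0.32 and 0.45. Differently numbered libraries had correlations from -0.45 to 0.42. Whether the libraries pair cannot be told from these values. With the replicate block, 2 large and 2 small subunit genes had an unadjusted p under 0.05, as without it. The block changed no call, and it moved the assembly factors at that level from 2 to 1 and the translation factors from 4 to 2. Over all genes, 10.4% reached that level with the block and 6.01% were higher, against 8.98% and 5.52% without it. The count of large subunit genes at that level was 2, 0 with limma-voom, and between 0 and 5 when each library was left out. The small subunit count was 2, 5 without both control 1 and inhibitor 4, and between 1 and 4 when each library was left out. Over all genes, the share at that level was 8.98%, 9.36% with limma-voom and 15.9% without both. When each library was left out, it ran from 3.95% (without inhibitor 1) to 11.9% (without control 1). Members with no overlap numbered 6, 18 without both control 1 and inhibitor 4, and between 6 and 13 when each library was left out. Leaving out libraries can only keep or raise this count. The matching shares of all genes are not given here, so the counts with libraries left out have no background beside them. The log2 fold change of Mrps18a was 0.04 and turned to -0.044 without both, and that of Mrps22 was 0.07 and turned to -0.018. Mrps2 was at 0.01, -0.0028 with limma-voom and -0.010 with median-of-ratios scaling. When each library was left out, the range was -0.064 to 0.023 for Mrpl41, -0.036 to 0.079 for Mrps18a, -0.032 to 0.056 for Mrps2, -0.0038 to 0.14 for Mrps22, -0.11 to 0.0086 for Mrps28, -0.096 to 0.043 for Mrps34 and -0.0014 to 0.14 for Mrps35. The cause of these changes of sign was not tested. The planned count model was not run, because the deposited unit was RPKM. Depth limits the members with few reads, and 13 had a library under 200 reads. These were not simply the lowest in RPKM, as Mrps16 at 17.7 RPKM was among them and Mrps36 at 4.66 RPKM was not.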

Other observations

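A number of MRP genes share a promoter region with a neighbour that points the other way. Of the 56 members with a promoter entry, 16 (28.6%) had a neighbour on the opposite strand whose start lay within 1000 bases in a head-to-head order, with an overlap of up to 200 bases allowed, against 986 of 8121 table genes (12.1%). These positions come from the RefSeq table on GRCr8, and the shares were not tested. Mrps11 and Mrpl46 were each other's partner, with 234 bases between their starts, so that a small and a large subunit gene start from 1 region. Their levels differed, at 18.6 and 7.52 RPKM.

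The levels of the 12 distinct pairs with both genes in the table did not follow each other as a rule. The correlation of log2(RPKM + 1) over the 8 libraries ran from -0.84 for Mrps18b and Ppp1r10, which encodes a regulator of protein phosphatase, to 0.86 for Mrpl32 and Psma2, which encodes a proteasome subunit, with a median of 0.0056. Mrpl51 and Ncapd2, a condensin subunit, had starts 50 bases apart and log2 fold changes of 0.16 and 0.07. Mrpl18 and Tcp1, a subunit of the cytosolic chaperonin, had starts 425 bases apart and log2 fold changes of 0.16 and 0.09. Of the partners, 1 had an unadjusted limma p under 0.05, Ptcd2 beside Mrps27.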
